A study of Mus musculus with 48 samples.

Results

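The question was whether KIRA8 changed RNA differently in the epithelial compartment of bleomycin-injured lung than in whole lung. The comparison used every bleomycin mouse of batches S061 and S135 that had received KIRA8 or the control treatment, labelled Vehicle in these batches. These were 10 of the 24 mice and 20 of the 48 libraries, 1 per compartment and mouse. S061 held 3 control and 3 KIRA8 mice, of which 2 per arm were female and 1 male, and S135 held 2 and 2, all male. All 10 mice had received bleomycin, so the controls were injured lungs too. The labels describe the RNA of both compartments as Ribotag immunoprecipitates, taken with an anti-HA antibody and sequenced from Lexogen Quantseq Forward libraries. How the preparation differed for whole lung was not stated in the labels. Neither were the driver that places the tag in epithelium, the strain and age of the mice, or the dose and timing of bleomycin and KIRA8.

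IRE1α is a sensor in the membrane of the endoplasmic reticulum. When unfolded protein accumulates it uses its kinase and RNase activities to splice the mRNA of the transcription factor XBP1 and to degrade other mRNAs at the membrane. KIRA8 is a small molecule that binds the kinase of IRE1α and thereby attenuates its RNase. In RiboTag mice a tagged ribosomal protein is switched on in chosen cells, so that RNA on the ribosomes of those cells can be precipitated from a whole tissue. Bleomycin injures the alveolar epithelium, and fibroblasts lay down matrix in the fibrosis that follows.

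Each gene was given an interaction, the log2 change with KIRA8 in epithelium minus that in whole lung. A negative value means that the change in epithelium lay below that in whole lung, sign included. Levels are CPM, counts scaled to a common library size with TMM factors over the 20 libraries. In these bulk libraries, fewer cells of a type and less RNA per cell cannot be told apart. The deposited table names genes by Ensembl ID, 0 of its IDs were matched to a symbol, and single genes are therefore given by ID, at most 2 in each direction per comparison. For the same reason the markers of epithelium or of any other cell type could not be looked up. The compartments were checked instead with genes that separated the libraries of the 6 saline mice, which had no part in the comparison.

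In saline mice, 1964 genes (13.2% of those tested) were at least 2-fold higher in epithelial than in whole lung libraries and 3218 (21.6%) at least 2-fold lower (34.8% together), and these are called epithelium-enriched and epithelium-depleted. The same contrast was present in all 10 injured mice but was smaller in S061. The saline mice came from S135 and S151 and none from S061, so the genes were chosen partly within S135. The size of the contrast in S061 and S135 is therefore not compared on an even footing. The median within-mouse log2 difference of the enriched genes, epithelium minus whole lung, ran from 0.75 to 1 in S061 and from 1.28 to 1.47 in S135. That of the depleted genes ran from -1.45 to -1.08 in S061 and from -2.24 to -2.09 in S135. Genes depleted at least 8-fold held 6.9% ± 1.44 of counts in epithelial libraries of control mice and 9.64% ± 1.8 in those of KIRA8 mice in S061 (SD, n = 3 each), against 0.891% ± 0.012 and 0.736% ± 0.211 in S135 (SD, n = 2 each). In whole lung libraries the groups lay between 13.6% and 16% on average. Total counts ran from 21790283 to 51797377 in S061 and from 7163613 to 20468041 in S135.

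**Figure D1:**
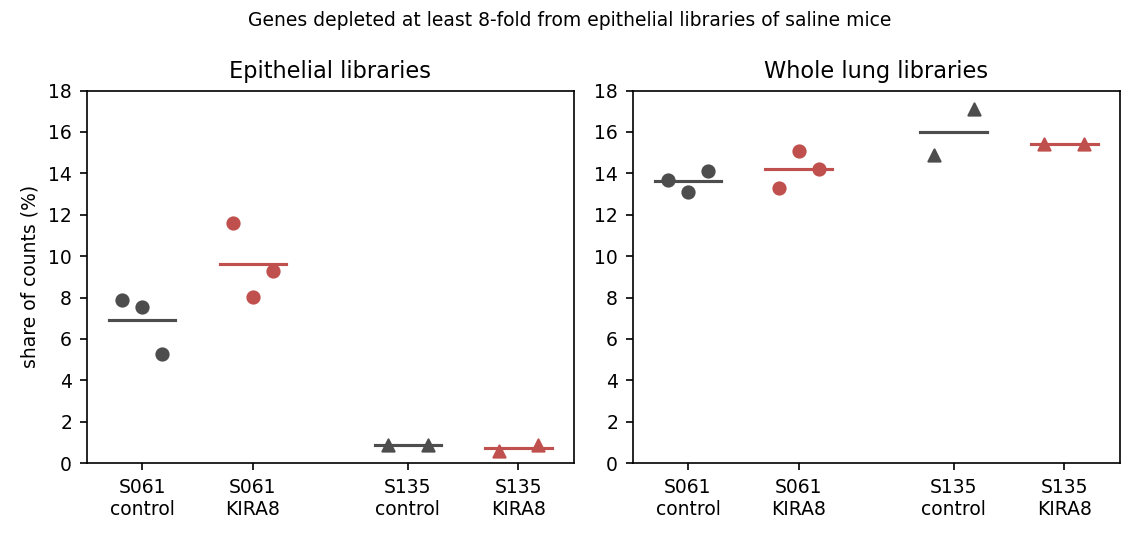
Share of counts (vertical axes, percent) held by genes at least 8-fold depleted from epithelial libraries of saline mice, in epithelial (left) and whole lung (right) libraries of control (grey) and KIRA8 (red) mice of batch S061 (circles) and S135 (triangles). Each point is 1 library and each line a group mean; epithelial libraries of S061 stand at 5.26% to 11.6% and those of S135 at 0.586% to 0.899%.

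By edgeR, ENSMUSG00000024529 alone had a KIRA8 response that differed between the compartments past the threshold: it fell further in epithelium than in whole lung. It was the 1 gene called of 16904 tested (0.00592%), and it was lower. DESeq2 called 264 genes and limma voom 294, this gene among both, and edgeR called 38 without KIRA8 mouse 32, 3 without KIRA8 mouse 20 and 2 without control mouse 149. Its epithelial level in S061 was 58.3, 65.4 and 49.7 CPM in the control mice and 12.6, 8.96 and 11.5 CPM in the KIRA8 mice. In S135 it was 11.6 and 7.25 CPM in control and 1.46 and 2.9 CPM in KIRA8 mice. Every epithelial KIRA8 library thus lay below every control library of its batch. The lowest epithelial values rested on 17 counts in each of the 2 KIRA8 libraries of S135, against 138 and 97 in the controls.

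In whole lung the same gene stood at 161, 185 and 139 CPM in control and 141, 68.9 and 109 CPM in KIRA8 mice of S061. In S135 it stood at 51.6 and 26.9 CPM in control and 19.1 and 24.4 CPM in KIRA8 mice. The whole lung arms overlapped in S061 and did not in S135. The log2 change with KIRA8 was -2.35 ± 0.2 in epithelium (SE, edgeR adjusted p = 0.00022) and -0.7 ± 0.21 in whole lung (SE, edgeR adjusted p = 0.15), the latter with a 95% interval from -1.17 to -0.24. The interaction of ENSMUSG00000024529 was -1.64 ± 0.16 (SE, 95% interval -1.99 to -1.3, edgeR adjusted p = 0.000652, n = 5 mice per arm).

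**Figure D2:**
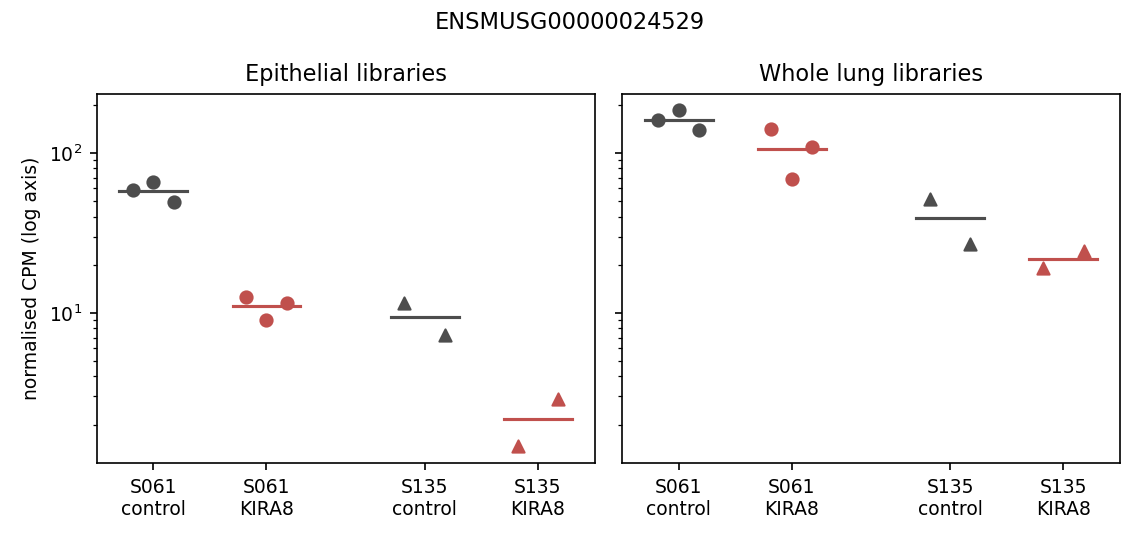
Normalised CPM of ENSMUSG00000024529 (vertical axis, log scale) in epithelial (left) and whole lung (right) libraries of control (grey) and KIRA8 (red) mice, by batch (S061 circles, S135 triangles). Each point is 1 library and each line a group mean; epithelial means went from 57.8 to 11 CPM in S061 and from 9.43 to 2.18 CPM in S135, and whole lung means from 162 to 106 and from 39.2 to 21.8 CPM.

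The test rests on the difference between the 2 libraries of each mouse. For ENSMUSG00000024529 the epithelial library lay below the whole lung library by log2 differences of -1.46, -1.5 and -1.49 in control and -3.48, -2.93 and -3.24 in KIRA8 mice of S061. In S135 the differences were -2.14 and -1.88 in control and -3.64 and -3.03 in KIRA8 mice. The 5 KIRA8 mice lay below the 5 control mice with no overlap, also across batches. The gene was chosen by this difference in the same mice, which favours such a separation and a call with a mouse left out. Fitted within a batch, the interaction was -1.77 in S061 (edgeR adjusted p = 0.00366) and -1.39 in S135 (edgeR adjusted p = 0.382), and a test of the difference between batches gave 0.37 ± 0.36 (SE, edgeR adjusted p = 0.797). The gene was epithelium-depleted in saline mice (log2 difference -2.38, edgeR adjusted p = 3.07e-06). With the share of genes depleted at least 8-fold, to which it does not belong, as a term, its interaction was -1.58 (edgeR adjusted p = 0.00103). Bleomycin against saline in S151, with 4 bleomycin control and 3 saline mice, gave log2 changes of 1.57 in epithelium and 1.28 in whole lung, neither past the threshold (edgeR adjusted p = 0.14 and 0.0945). The call was lost without the mouse block (interaction -1.65, edgeR adjusted p = 0.136) and within S135, and it held with each of the 10 mice left out (edgeR adjusted p from 0.000582 to 0.0093).

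The next gene of that direction, ENSMUSG00000028780, did not pass in edgeR (adjusted p = 0.0924) but did in DESeq2 (adjusted p = 0.000132) and limma voom (adjusted p = 0.00216). Its whole lung levels in S061 were 66.8, 93.6 and 90.4 CPM in control and 146, 173 and 150 CPM in KIRA8 mice, and in S135 170 and 217 CPM against 311 and 282 CPM. Its epithelial levels were 19.5, 23.1 and 30.8 CPM in control and 19.7, 15.7 and 14.1 CPM in KIRA8 mice of S061, and 32.1 and 29.2 CPM against 26.3 and 30.5 CPM in S135. KIRA8 and control libraries were apart in whole lung of both batches and overlapped in epithelium. The log2 change was 0.78 ± 0.12 in whole lung (SE, edgeR adjusted p = 0.0691) and -0.4 ± 0.17 in epithelium (SE, edgeR adjusted p = 0.342), and the interaction -1.18 ± 0.18 (SE, 95% interval -1.58 to -0.79). It is an epithelium-depleted gene, with a log2 difference of -3.32 in saline mice. The larger change was thus in epithelium for the former gene and in whole lung for this one.

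With a higher change in epithelium edgeR called 0 genes (0%), with 1084 at an unadjusted p under 0.05, whereas DESeq2 called 137 and limma voom 147. Without KIRA8 mouse 32, edgeR called 21. The first by the naming rule, ENSMUSG00000056501, had an interaction of 0.79 ± 0.14 (SE, edgeR adjusted p = 0.0924; adjusted p = 0.000132 in DESeq2 and 0.00859 in limma voom). In epithelium it stood at 44.8, 43 and 32.6 CPM in control and 68.4, 52.9 and 58.5 CPM in KIRA8 mice of S061, and at 79.8 and 53.7 CPM against 91.3 and 120 CPM in S135. Every epithelial KIRA8 library lay above the controls of its batch. In whole lung it stood between 49.8 and 89.2 CPM in all 10 libraries, and the arms overlapped in both batches. Its log2 change was 0.6 ± 0.15 in epithelium (SE, edgeR adjusted p = 0.114) and -0.16 ± 0.12 in whole lung (SE, 95% interval -0.43 to 0.1).

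ENSMUSG00000074622, the next, had an interaction of 0.82 ± 0.15 (SE, edgeR adjusted p = 0.107; adjusted p = 0.00113 in DESeq2 and 0.00443 in limma voom), with the larger change in whole lung. There it stood at 185, 170 and 160 CPM in control and 160, 81.4 and 110 CPM in KIRA8 mice of S061, and at 92.6 and 69.4 CPM against 45.8 and 39.1 CPM in S135. In epithelium it stood at 68.4, 76.5 and 49.4 CPM in control and 113, 61.8 and 89.4 CPM in KIRA8 mice of S061, and at 18.7 and 12.6 CPM against 11.9 and 10.4 CPM in S135. The arms were apart in both compartments of S135, overlapped in epithelium of S061 and met at 160 CPM in its whole lung. Its log2 change was -0.71 ± 0.16 in whole lung (SE, edgeR adjusted p = 0.0888) and 0.1 ± 0.22 in epithelium (SE, edgeR adjusted p = 0.9). It was epithelium-depleted in saline mice, at -2.74, and raised by bleomycin in whole lung of S151, at 1.3 (edgeR adjusted p = 0.0219).

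**Figure D3:**
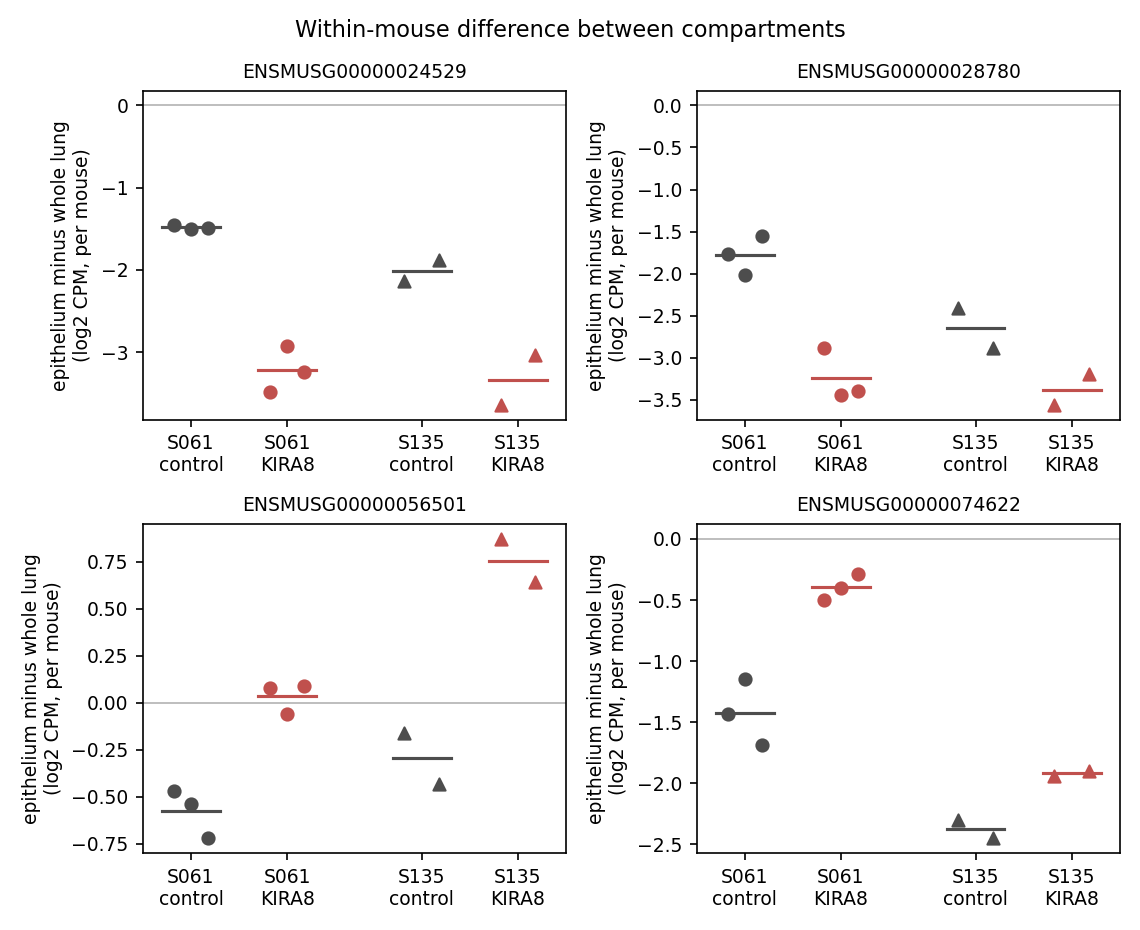
Difference between the epithelial and the whole lung library of each mouse (vertical axes, log2 CPM, epithelium minus whole lung) for the 2 leading genes of each direction, in control (grey) and KIRA8 (red) mice of S061 (circles) and S135 (triangles); lines are group means. In each panel the KIRA8 mice of a batch lie apart from its control mice, as the choice of genes by this difference favours, and by edgeR only ENSMUSG00000024529 passed the threshold over all genes.

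The 10 leading genes of each direction by the naming rule (a level of at least 5 CPM and the same sign in both batches) had interactions between -1.64 and -0.76 and between 0.7 and 1.1. These values chose the genes and are given as a description. Among the 10 lower ones the log2 change with KIRA8 ran from -2.35 to -0.34 in epithelium and from -0.7 to 0.78 in whole lung, and in 2 of them the whole lung change was the larger. Among the 10 higher ones it ran from 0 to 0.69 in epithelium and from -1.06 to -0.02 in whole lung, and in 4 the whole lung change was the larger. Epithelium-depleted genes made up 4 of the lower and 3 of the higher ones, against 3159 of the 16904 genes tested. Epithelium-enriched genes made up 0 and 2, against 1945 of the 16904.

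**Figure D4:**
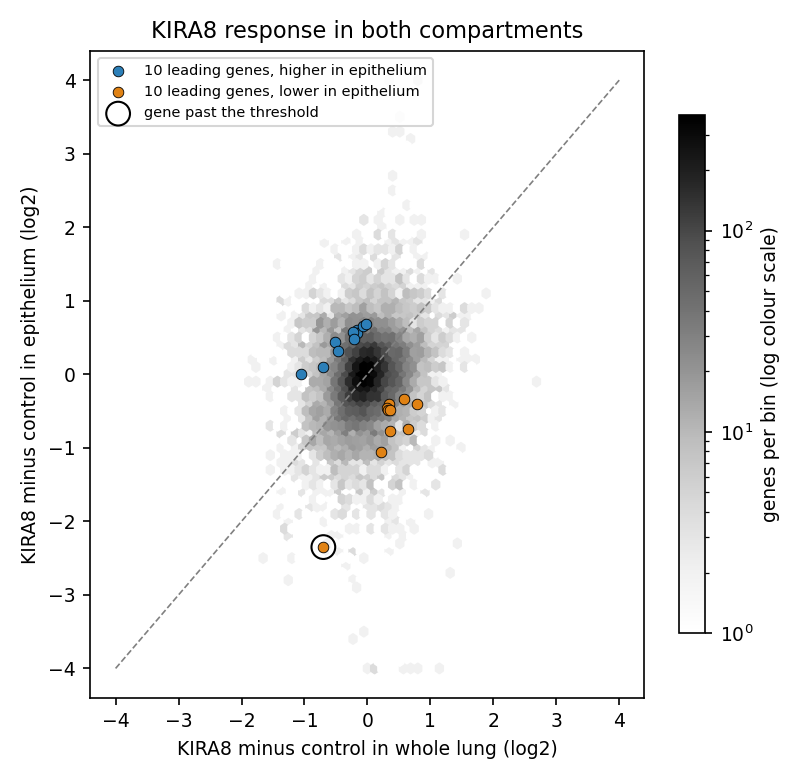
Log2 change with KIRA8 in whole lung (horizontal axis) and in epithelium (vertical axis) for the 16904 genes tested, as counts of genes per bin, with values past the axis limits drawn at the edge. The dashed line marks equal change; the 10 leading genes higher (blue) and lower (orange) in epithelium lie off it, and the ringed gene past the threshold, ENSMUSG00000024529, stands at -0.7 and -2.35.

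Each compartment was also tested alone in the same mice and genes. By edgeR, 3 genes passed in epithelium, all lower with KIRA8 (0.0177% of genes tested, with 12.7% at an unadjusted p under 0.05), and DESeq2 called 538. In whole lung edgeR called 0 genes (0%), whereas DESeq2 called 876 and the unadjusted p was under 0.05 for 2750 (16.3%). One of the 3 was ENSMUSG00000024529. ENSMUSG00000023905 stood in epithelium at 54.1, 55.3 and 72.6 CPM in control and 10.5, 14 and 15.8 CPM in KIRA8 mice of S061, and at 11.4 and 6.65 CPM against 2.14 and 4.27 CPM in S135. In whole lung it stood at 15.8, 21.4 and 12.9 CPM against 24.4, 8.56 and 9.59 CPM, and at 21.3 and 11.7 CPM against 7.98 and 14.7 CPM. The arms did not overlap in epithelium and overlapped in whole lung of both batches.

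For ENSMUSG00000023905 the log2 change was -1.99 ± 0.23 in epithelium (SE, edgeR adjusted p = 0.0036) and -0.36 ± 0.32 in whole lung (SE, 95% interval -1.07 to 0.35). Its interaction of -1.52 ± 0.37 (SE, 95% interval -2.31 to -0.72, edgeR adjusted p = 0.136) did not pass over all genes. A difference between compartments was thus not shown for this gene by edgeR, and its interaction in the other tools is not given here. Its within-mouse differences in KIRA8 mice lay below those of the control mice of each batch, which its choice by the epithelial change favours. In S151 bleomycin raised it in both compartments, by 1.98 in epithelium and 1.77 in whole lung (edgeR adjusted p = 0.00467 and 0.00256). The remaining gene called in epithelium had a change of -1.22 ± 0.14 (SE, edgeR adjusted p = 0.00381) there, -0.33 ± 0.15 in whole lung (SE), and an interaction of -0.87 ± 0.23 that did not pass (SE, edgeR adjusted p = 0.153). The count in epithelium was 6 without KIRA8 mouse 20, 137 without control mouse 149 and 13 without KIRA8 mouse 154, and that in whole lung 3, 462 and 1 without the same mice and 1 without control mouse 148.

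The precision of the interaction bounds what the other genes can have done. Its median standard error was 0.3 on the log2 scale. For 8375 of the 16904 genes (49.5%) the 95% interval, taken gene by gene, lay within 1 log2 unit of 0, so that a difference over 2-fold between the compartments was outside it. For the rest such a difference was not excluded at this number of mice, although 1951 genes (11.5%) had an estimate beyond 1. At an unadjusted p under 0.05 there were 1084 genes (6.41%) with a higher and 1190 (7.04%) with a lower change in epithelium, together 13.5% of genes tested.

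The largest gene groups defined in mice outside the comparison had median interactions within 0.05 of that of all genes. All tested genes had a median interaction of -0.02, with a middle range from -0.35 to 0.26. The 1945 epithelium-enriched genes tested had a median of -0.02 with 0 called by edgeR, and the 3159 epithelium-depleted genes one of -0.07 with 1 called. Of the enriched genes 503 (25.9%) had an unadjusted p under 0.05, against 13.1% of the depleted ones; the median standard error was 0.222 for the former and 0.397 for the latter. The enriched genes had medians of opposite sign in the batches, -0.14 in S061 and 0.12 in S135, with 40.5% and 61.4% of them positive. With the share of depleted RNA as a term their median was 0.02.

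For genes that bleomycin changed in S151 (2.14% of genes in epithelium and 4.58% in whole lung), the median change with KIRA8 was of like size in both compartments in 3 of 4 groups. A gene could be in the groups of both compartments, so the 4 groups are not independent. The 259 tested genes raised by bleomycin in epithelium (called 1.75% of genes there) had a median log2 change with KIRA8 of -0.48 in epithelium and -0.48 in whole lung, and a median interaction of -0.04. The 576 raised in whole lung (called 3.52%) had medians of -0.48 and -0.49 and an interaction of -0.04. Within S061 and S135 these interactions were -0.17 and 0.06 for the former and -0.14 and 0.08 for the latter. Both became 0.02 with the share of depleted RNA as a term. The 174 lowered in whole lung (called 1.06%) had medians of 0.32 and 0.35 and an interaction of -0.14, which was -0.13 in S061, -0.16 in S135 and -0.07 without control mouse 17. The 59 lowered in epithelium (called 0.393%) stood apart from these in value, with 0.34 in epithelium against 0.13 in whole lung and an interaction of 0.09, for which 64.4% of genes were positive against 48.3% of all genes. Within batches this median was 0.12 in S061 and 0.07 in S135, with 55.9% and 54.2% of genes positive, and it ran from 0.06 to 0.18 with a mouse left out (0.06 without control mouse 45 and 0.18 without KIRA8 mouse 154). No gene of these 4 groups was called in the interaction, where edgeR called 1 of all 16904 genes tested (0.00592%). An absence of calls therefore says little about these groups.

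The genes changed by bleomycin were also split by compartment. Among those raised in epithelium, the 17 epithelium-enriched genes had a median interaction of -0.42 (-0.8 in S061 and 0 in S135), and the 74 epithelium-depleted genes one of -0.02 (-0.06 and -0.03). The median of these 17 was -0.25 without control mouse 17. The 64 epithelium-enriched genes among those raised in whole lung had a median change of -0.52 in epithelium and -0.26 in whole lung with KIRA8, and a median interaction of -0.27, with 23.4% positive. Their median interaction was -0.55 in S061 and 0.03 in S135. In S061 the within-mouse medians of these genes were 1.5, 1.23 and 1.62 in control and 0.71, 1.29 and 1.08 in KIRA8 mice, so that KIRA8 mouse 32 lay within the control range. The 164 epithelium-depleted genes among those raised in whole lung had a median interaction of 0.17, which was 0.17 in S061 and -0.2 in S135. The share of depleted RNA in epithelial libraries also moved with KIRA8 in S061, up from 6.9% to 9.64%, and with that share as a term the medians were -0.18 and 0.15. Without KIRA8 mouse 20 the median of these enriched genes was -0.12, and without control mouse 45 it was -0.18. That of the depleted genes was 0.08 without KIRA8 mouse 32, 0.11 without control mouse 31 or 45, and 0.26 without KIRA8 mouse 154. Among genes lowered in whole lung, the 64 epithelium-depleted ones had a median interaction of -0.19 (-0.13 in S061 and -0.27 in S135). It ran from -0.29 to -0.09 with a mouse left out. The 26 epithelium-enriched ones had -0.1 (-0.24 and -0.01). Among those lowered in epithelium, the 22 enriched genes had 0.17 (-0.03 and 0.24) and the 2 depleted ones 0.04 (0.08 and -0.08).

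**Figure D5:**
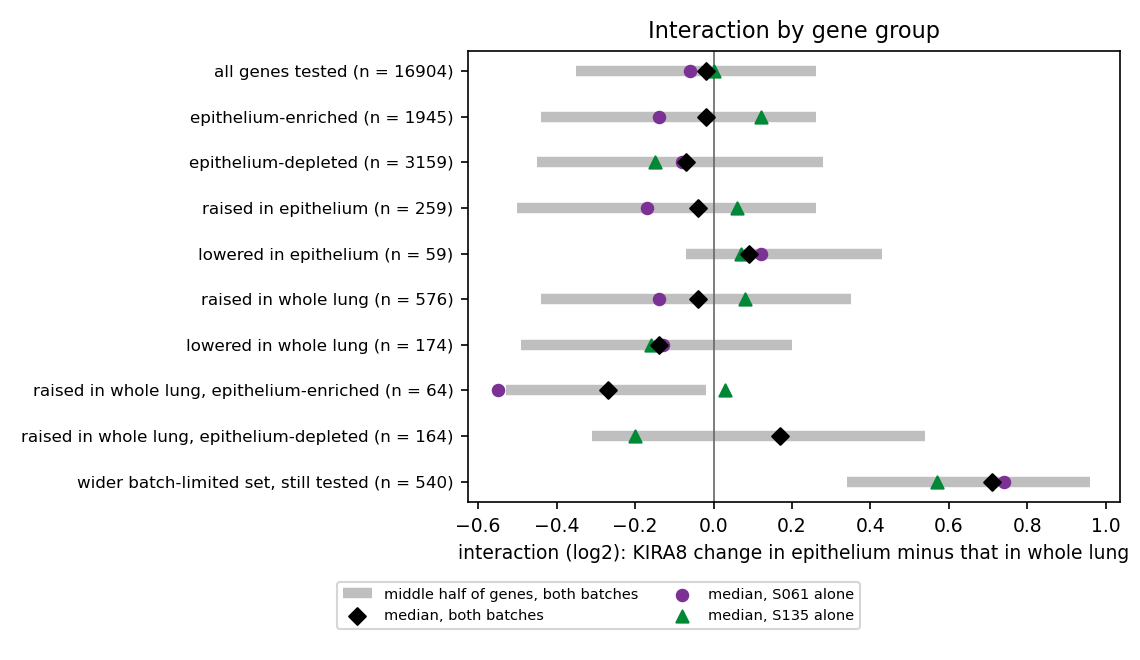
Interaction of KIRA8 with compartment (horizontal axis, log2, change in epithelium minus change in whole lung) for groups of genes defined in other mice and, in the bottom row, for S061-limited genes still tested; diamonds are medians over both batches, grey bars the middle range from the lower to the upper quartile, circles the medians in S061 and triangles those in S135. Most medians lie within 0.2 of 0 and several change sign between batches, while the bottom row stands at 0.71.

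The batches share no mouse. Across the 16904 genes the interactions in S061 and S135 had a Pearson r of 0.0732 and a Spearman rho of 0.0969; genes are not independent replicates, and the median standard error was 0.308 in S061 and 0.533 in S135. The 100 genes with the smallest p and a lower change in S061 had a median of -1.25 there and -0.24 in S135, with 70 of the same sign against 50.6% of all genes. The 100 with a higher change in S061 had a median of 0.98 there and -0.02 in S135, with 49 of the same sign against 49.4% of all genes. The median standard error in S135 was 0.985 for these higher genes and 0.245 for the lower ones. Taken from S135, the leading 100 had medians in S061 of 0.21 for the higher (68 of the same sign, against 45.1% of all genes) and -0.24 for the lower (67, against 54.9%). Within S061 alone 15 genes were called (0.0887%), 13 of them lower (0.0769%), and within S135 10 genes (0.0592%), 6 of them higher (0.0355%) and 4 lower (0.0237%); 0 were called in both. Of the 13 lower genes of S061, which include ENSMUSG00000024529, 9 were also lower in S135 and 5 of these had an unadjusted p under 0.05 there. Of the 2 higher ones, 1 kept its sign in S135 and 0 had such a p with it. Of the 6 higher and 4 lower genes of S135, 5 and 3 kept their sign in S061, and 3 and 1 also had such a p. Among all 16904 genes, 1116 had an unadjusted p under 0.05 in S135 and 3058 in S061, in either direction.

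The difference of the interaction between batches was called for 2 genes (0.0118%), with 9.47% of genes at an unadjusted p under 0.05. ENSMUSG00000041920 stood in epithelium at 18.1 and 6.35 CPM in control and 0.771 and 1.19 CPM in KIRA8 mice of S135, the latter on 9 and 7 counts, and between 11.8 and 18 CPM in all epithelial libraries of S061. In whole lung of S135 it stood at 30 and 13.6 CPM in control and 13.1 and 14.9 CPM in KIRA8 mice. Its interaction was -2.98 in S135 and 0.4 in S061 (edgeR adjusted p for the difference = 0.0163). ENSMUSG00000063316, which belongs to a wider set of S061-limited genes described next, had between 241 and 475 CPM in S061 but between 0 and 28 counts per library in S135, so its value there rests on few counts.

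Some RNA was limited to S061. The 146 genes taken out, called batch-limited, had at least 50 CPM in each of the 12 S061 libraries and a median under 0.5 CPM elsewhere; that they are liver transcripts could not be checked without gene names. They made up 7.72% ± 1.48 of epithelial counts in control and 10.8% ± 1.76 in KIRA8 mice of S061 (SD, n = 3 each), against 8.66% ± 1.19 and 8% ± 0.873 in whole lung. Kept in the table, their median interaction was 0.86, 101 of them had a higher change in epithelium at an unadjusted p under 0.05 and 0 a lower one, and edgeR called 0 of them. The wider set of S061-limited genes had at least 1 CPM in each S061 library and a median there at least 20-fold that elsewhere. It left 540 genes in the test and in the scaling. These held 11.2% to 21.5% of counts per library in S061, against 0.424% to 2.16% in S135. They had a median interaction of 0.71, with 90.4% positive and 0 called by edgeR. At an unadjusted p under 0.05, 175 were higher and 1 lower, of 1084 and 1190 among all genes tested. With the share of depleted RNA as a term the median was 0.33. None of the 20 leading genes belonged to them. In S135 their median of 0.57 came with a within-mouse value of -1.76 in control mouse 149, whose whole lung library held 0.846% of batch-limited RNA, and of 0 in the other 3 mice.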

How the data were processed

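The authors deposited a table of raw read counts per Ensembl gene and library (42548 genes, 48 libraries); STAR 2.5.2b and the build GRCm38 are named in the submitters' processing notes. The counting program was not given in the sources used here. Columns were matched to samples by arm, mouse number and letter (E as epithelium, I as whole lung), and 0 columns were left unused. Of the Ensembl IDs, 0 matched the reference table of 49997 genes, so the symbol lists and marker lists prepared for this work were not applied. Members, groups and rules were chosen with earlier results of these data known. The labels do not say that mice were independent experiments, so p-values measure the spread between these mice.

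Counts were tested in R 4.3.3 with edgeR 4.0.16 (TMM, filterByExpr on arm by compartment, robust quasi-likelihood, Benjamini-Hochberg over 16904 genes, called under 0.05), after the 146 batch-limited genes were removed. The interaction fit had the mouse as a block, a compartment term per batch and 7 residual degrees of freedom; its code was tested on simulated data. Single compartments were fitted with batch. The SE is the fold change over the root of F, and 3 genes gave none. Within-mouse log2 differences used a prior count of 2. The pairing comes from the mouse numbers. The epithelial and whole lung deviations from group means correlated within each of the 10 mice (r from 0.123 to 0.281). No correlation between libraries of different mice is set beside these values, so they do not test the pairing. Named genes were those called with at least 5 CPM in the highest group and the same sign in both batches, by fold, then by smallest p up to 10 per direction; without symbols, 2 per direction were named, and genes outside the rule (counts of 5 or fewer) were chosen after their values were seen. Alternatives included DESeq2 1.42.0 and limma 3.58.1 voom. S151 and saline mice defined gene groups, gave reference levels, and entered the alternatives over all libraries. The batch-limited set and the wider set were defined over all 48 libraries, those of the comparison included. They used the levels in the 12 libraries of S061 and the median over all libraries of the other batches.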

Additional observations from a re-analysis of the deposited data

Results flagged for a closer look

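The interaction of ENSMUSG00000024529, -1.64 on the log2 scale, is a difference in the KIRA8 response between the compartments shown by a test of the difference itself. The interaction also differed between S061 and S135 for 2 genes by such a test, ENSMUSG00000041920 and ENSMUSG00000063316. The epithelial KIRA8 values of the former in S135 rest on 9 and 7 counts. The latter is one of the wider set of S061-limited genes and had at most 28 counts per library in S135. In S135, control mouse 149 had a whole lung library that held 0.846% of counts in the genes limited to S061, against at most 0.0438% in the saline libraries of its batch. No sample lay far from its group in the 44 groups of 5 libraries or mice checked, where chance would mark about 1 in 20. A group of 5 spans S061 and S135, so a departure within a single batch, such as that of mouse 149, can pass unmarked.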

How the results depend on the processing

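The interaction called 1 gene, and also 1 with DESeq2 size factors, a 5 CPM filter, the batch-limited genes kept, the wider set removed, the purity term or a sex term. It called 264 in the DESeq2 Wald test, 294 in limma voom with quality weights (165 in both), 697 with no filter, 23 over all 48 libraries, 3 with the batch-limited share as a term, 15 within S061 and 10 within S135. Without the replicate block, that is without the mouse pairing, edgeR called 0 (1700 genes had an unadjusted p under 0.05), and ENSMUSG00000024529 had -1.65 with adjusted p = 0.136. With a mouse left out it ran from 1 to 38; the 38 came without KIRA8 mouse 32 (21 higher, 17 lower, among them the main call and 15 of the 20 leading genes), and the count was 3 without mouse 20 and 2 without mouse 149. ENSMUSG00000024529 was called in 22 of 24 alternatives (-1.77 to -1.39, adjusted p from 2.01e-13 to 0.382), ENSMUSG00000028780 in 9, ENSMUSG00000056501 in 4 and ENSMUSG00000074622 in 3. All kept the sign of the main fit. The naming rule required the same sign in both batches, and the alternatives reuse the mice that chose the genes. The kept sign was thus favoured in advance and is not separate evidence.

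In epithelium the count of 3 became 8 with the batch-limited genes kept, 538 in DESeq2, 114 with no filter and 46 over 24 libraries, and ran from 3 to 137 with a mouse left out. In whole lung the count of 0 became 876, 147 and 106 under the last 3 of these and ran from 0 to 462. The cause of these shifts was not tested. With the smaller depth and 2 mice per arm of S135, its interactions have a median standard error of 0.533.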
